A study of Mus musculus with 16 samples.

Results

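The proximal MYC network was followed as 9 genes, Myc, Mycn, Max, Mxd1, Mxd3, Mxd4, Mxi1, Mnt and Mga, picked by their gene symbols from the 32286 features of the expression matrices, and all 9 were present in all 16 libraries. The study asked what IACS-70654, an inhibitor of the bromodomain of the coactivators CBP and P300, does to 2208L mammary tumors and to the BM of the mice that carry them. 2208L is a transplantable Trp53-null mouse mammary tumor line with many neutrophils, grown in the mammary fat pad of female WT BALB/c mice that were transplanted at 7 to 8 weeks of age. BM came from WT non–tumor-bearing mice, from 2208L tumor–bearing mice given vehicle and from 2208L tumor–bearing mice given IACS-70654 by mouth. Per the labels, dosing ran for 7 days on a schedule of 3 days on and 2 days off, and tissue was taken the day after the last dose. Each BM group had 2 libraries of CD45+ Ter119- cells and 2 libraries of Lin- c-Kit+ CD45+ cells, the fraction that holds stem and progenitor cells. The tumors gave 4 libraries, each the only library of its condition: vehicle, IACS-70654, anti-PD1 and the combination of both agents. The study's own text gives a BM treatment shorter by a day. All host mice were WT BALB/c, so the Trp53-null allele was carried only by the transplanted tumor.

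Myc and Mycn are transcription factors that bind DNA only as partners of Max, and Myc–Max pairs recruit acetyltransferases, CBP and P300 among them, to genes of ribosome production, nucleotide synthesis and cell growth. The Mxd proteins (Mxd1, Mxd3, Mxd4 and Mxi1, also called Mxd2), Mnt and Mga compete for Max and for the same E-box, CACGTG, and recruit repressors such as the Sin3–histone deacetylase complex instead. In blood formation Myc is required for progenitors to leave the stem cell pool and divide, while Mxd1 rises as granulocytes stop dividing and mature.

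The promoters below, each 250 bases before to 50 bases after the start of the gene, are from RefSeq on GRCm38.p6, the assembly also called mm10, and are given 5′ to 3′ on the strand of the gene. Mxd1 and Mxd4 are shown because these antagonists carried most of the changes in progenitors, and Mnt and Max because, like Mxd4, they hold the E-box. Capitals mark CACGTG.
Mxd1: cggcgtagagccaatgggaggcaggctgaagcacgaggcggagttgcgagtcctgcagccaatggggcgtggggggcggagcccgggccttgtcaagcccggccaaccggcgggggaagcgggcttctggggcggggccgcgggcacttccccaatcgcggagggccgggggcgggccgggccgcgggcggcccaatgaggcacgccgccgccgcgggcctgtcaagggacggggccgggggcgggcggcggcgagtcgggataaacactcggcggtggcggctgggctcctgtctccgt
Mxd4: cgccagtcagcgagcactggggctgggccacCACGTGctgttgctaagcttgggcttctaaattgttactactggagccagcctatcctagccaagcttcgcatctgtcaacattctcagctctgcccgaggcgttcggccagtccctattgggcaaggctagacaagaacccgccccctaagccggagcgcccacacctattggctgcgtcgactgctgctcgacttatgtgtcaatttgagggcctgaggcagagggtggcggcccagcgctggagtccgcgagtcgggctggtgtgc
Mnt: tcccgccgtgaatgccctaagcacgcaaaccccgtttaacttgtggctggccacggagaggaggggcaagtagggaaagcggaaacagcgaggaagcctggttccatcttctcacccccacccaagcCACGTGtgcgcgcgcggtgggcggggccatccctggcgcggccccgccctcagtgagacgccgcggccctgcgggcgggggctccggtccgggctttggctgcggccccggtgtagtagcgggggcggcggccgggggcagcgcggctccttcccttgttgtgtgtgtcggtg
Max: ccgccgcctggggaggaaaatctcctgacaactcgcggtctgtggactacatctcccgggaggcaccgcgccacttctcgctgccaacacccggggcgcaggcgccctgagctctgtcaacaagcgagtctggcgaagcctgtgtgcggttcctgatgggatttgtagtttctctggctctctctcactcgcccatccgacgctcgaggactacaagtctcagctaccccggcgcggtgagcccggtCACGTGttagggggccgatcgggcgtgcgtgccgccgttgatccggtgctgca
These windows lie at chr6:86669110-86669409 on the minus strand, chr5:34187661-34187960 on the minus strand, chr11:74830674-74830973 on the plus strand and chr12:76962199-76962498 on the minus strand. CACGTG, which reads the same on both strands, started 219 bases before the start of Mxd4, 123 bases before that of Mnt and 3 bases before that of Max. It was not found in the windows of Mxd1, Mxd3, Mycn, Mga or in any of the 3 promoters of Mxi1. The promoter set held no entry for Myc, so Myc was not searched. Of 32851 mouse promoters of 300 bases, 7.15% held it. On the same assembly the GENCODE vM21 annotation places Myc at chr15:61985391-61990374, Mxd1 at chr6:86647042-86669161, Mxd4 at chr5:34173883-34187720 and Max at chr12:76937269-76962201, all as protein-coding genes. Max and Mxd1 overlap the small annotated genes Gm47218 and Gm44292 on their own strand, so reads of those neighbors could not be told apart from theirs in the overlap.

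Depth ranged from 15590289 to 68415534 unique molecular identifiers (UMIs, each a captured RNA molecule) per library, and from 1974 to 7517 cells per library passed the filters. The sorts carried their own marker: Kit stood at 98.0 to 152 CPM (UMIs of a gene per 1000000 UMIs of the library) in the 6 Lin- c-Kit+ libraries and at 6.07 to 17.6 in the 6 CD45+ libraries. Cells were clustered within each sort and classes named from marker genes, with "-like" added because no deposited annotation was used here. A level below is the CPM of a gene in the summed cells of a class in that library. A log2 change is from edgeR's quasi-likelihood test on UMI sums per class and library with TMM scaling, and a gene was called when its adjusted p fell under 0.01 and its log2 change passed 0.5 in size. The 2 libraries of a BM group may be parts of the same pool of 3 mice, so p-values measure only the spread between these libraries. No cell barcode was shared between libraries.

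In Lin- c-Kit+ cells the antagonists Mxd1 and Mxd4 rose in several progenitor classes under IACS-70654, and Myc fell in 1. Of 102 member-by-class tests over 14 classes, 10 were called, 9 higher and 1 lower. The 9 higher calls were all Mxd1 or Mxd4, and the lower call was Myc in megakaryocyte-like cells. Over all genes in the same classes 3.67% of tests were called, 1.41% higher and 2.26% lower. Each of the 10 calls was lost without vehicle replicate 1. DESeq2 called 2 of the 10, Mxd4 in MPP-like and in megakaryocyte-like cells, and no other member, and it gave no adjusted p for Mxd1 in megakaryocyte-like cells. Vehicle against WT gave 0 called members among 94 tests in edgeR, where edgeR called 0.627% of all tests, and 0 by DESeq2. At an unadjusted p under 0.05 stood 8 of the 94, 5 of them Mxd4, with no share of all tests given at that p. For DESeq2 no share of all genes was computed. IACS-70654 against WT gave 7 called of 94, 5 higher and 2 lower, against 3.18% of all tests, 1.25% higher and 1.94% lower. DESeq2 called 2 of these, Mxd4 in monocyte progenitor-like and in megakaryocyte-like cells. These comparisons share control libraries in pairs and are not independent of each other.

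**Figure D1:**
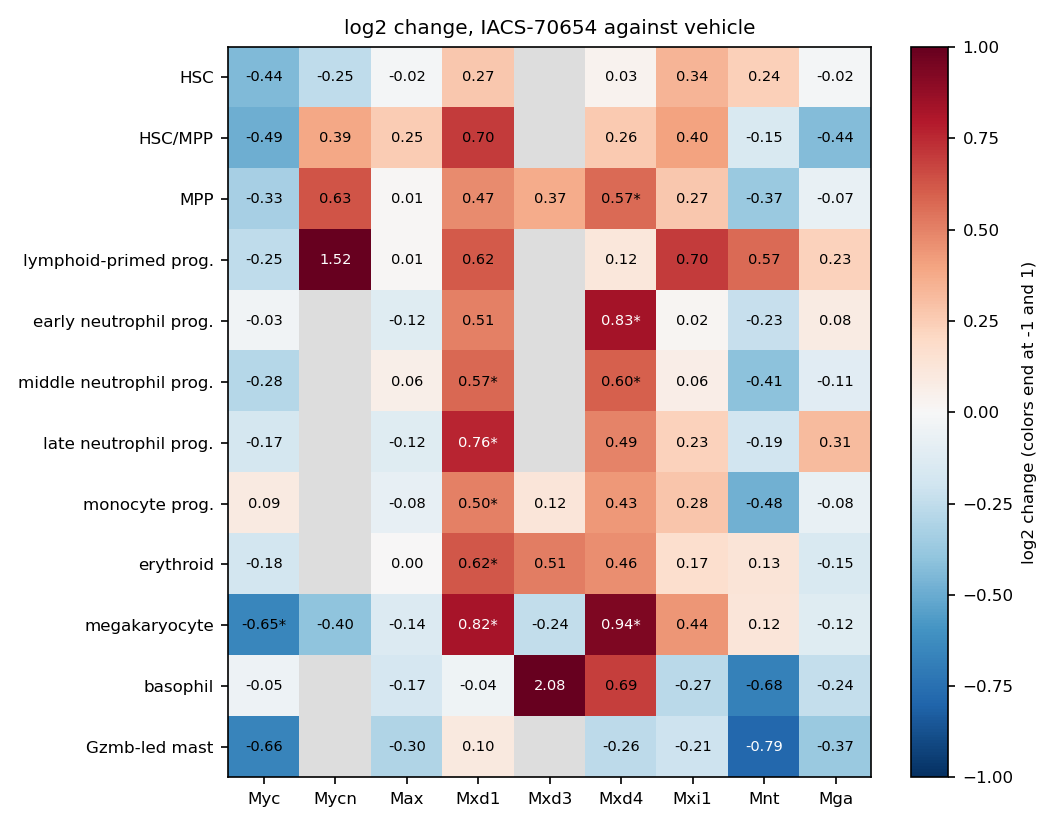
The log2 change of each member for IACS-70654 against vehicle in 12 Lin- c-Kit+ classes, rows, with members in columns. An asterisk marks a called change and gray a gene with too few UMIs to test. Mxd1 and Mxd4 are positive in nearly every class, from -0.04 to 0.82 and from -0.26 to 0.94, while Myc is negative in 11 and 0.09 in the monocyte progenitor-like class.

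Myc, the activator of the network, was highest in the MPP-like (96.7, mean over 6 libraries) and HSC/MPP-like classes (95.9) and lowest in the megakaryocyte-like (56.4) and Gzmb-led mast-like classes (41.1), with ranges that overlapped between every pair of neighbors in that order. In MPP-like cells Myc read 102 and 114 in the WT libraries, 97.9 and 107 under vehicle and 81.6 and 77.5 under IACS-70654. Both IACS-70654 libraries were below all 4 others. The log2 change against vehicle was -0.33 (SE 0.07, edgeR adjusted p = 0.000131) and that against WT -0.47 (adjusted p = 3.01e-06), both under the size set for a call. HSC/MPP-like cells gave 114 and 107 under vehicle and 81.5 and 82.8 under IACS-70654, a log2 change of -0.49 (SE 0.12, adjusted p = 0.00132), again short of the size threshold. The WT libraries of this class lay within the range of the vehicle and IACS-70654 libraries, and Myc was not called there against WT. In HSC-like cells vehicle and IACS-70654 did not overlap, at 83.4 and 86.6 against 63.3 and 64, but WT, at 72.7 and 62.2, spanned the IACS-70654 values, and the test against vehicle did not pass (log2 -0.44, SE 0.21, edgeR adjusted p = 0.353).

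Myc fell in megakaryocyte-like cells, where the WT libraries stood at 63.5 and 64.5, vehicle at 63 and 60.9 and IACS-70654 at 36.3 and 50.4. The WT and vehicle libraries lay within 60.9 to 64.5 and both IACS-70654 libraries below them, with a log2 change of -0.65 against vehicle (SE 0.15, edgeR adjusted p = 0.000946, 4.06% of genes called lower) and -0.72 against WT (SE 0.14, adjusted p = 9.18e-05). The call against vehicle was lost without vehicle replicate 1 or IACS-70654 replicate 1, with values from -0.85 to -0.37 when each library was left out, and that against WT without IACS-70654 replicate 1. It was also lost in G1 cells alone (log2 -0.81, adjusted p = 0.0565). The share of these cells in G1 was 26.9% and 33.0% under vehicle, 55.3% and 53.4% under IACS-70654 and 48.0% and 45.4% in WT, and its part in the result was tested only by that G1 fit. In the monocyte progenitor-like class Myc stood at 57.4 and 63.9 under vehicle and 63.2 and 68 under IACS-70654, overlapping groups with a log2 change of 0.09 (adjusted p = 0.437). Over the 14 classes the log2 change of Myc was negative in 12, with a median of -0.27, and both IACS-70654 libraries were below both vehicle libraries in 7, a pattern that 22% of all gene-by-class pairs at 10 or more CPM showed. The change of Myc differed between classes (class-by-treatment test over 12 classes, edgeR adjusted p = 0.000932, where 15.3% of all genes were called). That call was lost without the megakaryocyte-like class (adjusted p = 0.0102), vehicle replicate 1 (0.131) or IACS-70654 replicate 1 (0.0367).

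Mycn, the paralog used in the most immature stem cells, was highest in 2 classes. It averaged 29.7 CPM in megakaryocyte-like and 26.1 in HSC-like cells, and no library of either fell within the range of the HSC/MPP-like class (mean 12.1). In HSC-like cells it read 26.3 and 45.5 in WT, 22.7 and 22.8 under vehicle and 19.5 and 19.7 under IACS-70654, with the widest gap between the WT libraries. Of its 5 tests against vehicle 0 were called by edgeR or DESeq2, with 2 at an unadjusted p under 0.05. Over all genes 10.9% of tests were higher and 12.8% lower at that p. Max, the shared partner, varied little among Lin- c-Kit+ classes, from 45.2 in late neutrophil progenitor-like to 62.9 in lymphoid-primed progenitor-like cells. Its log2 change with IACS-70654 was positive in 7 classes and negative in 7, with a median of -0.01 and 0 called by edgeR or DESeq2 or at an unadjusted p under 0.05.

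**Figure D2:**
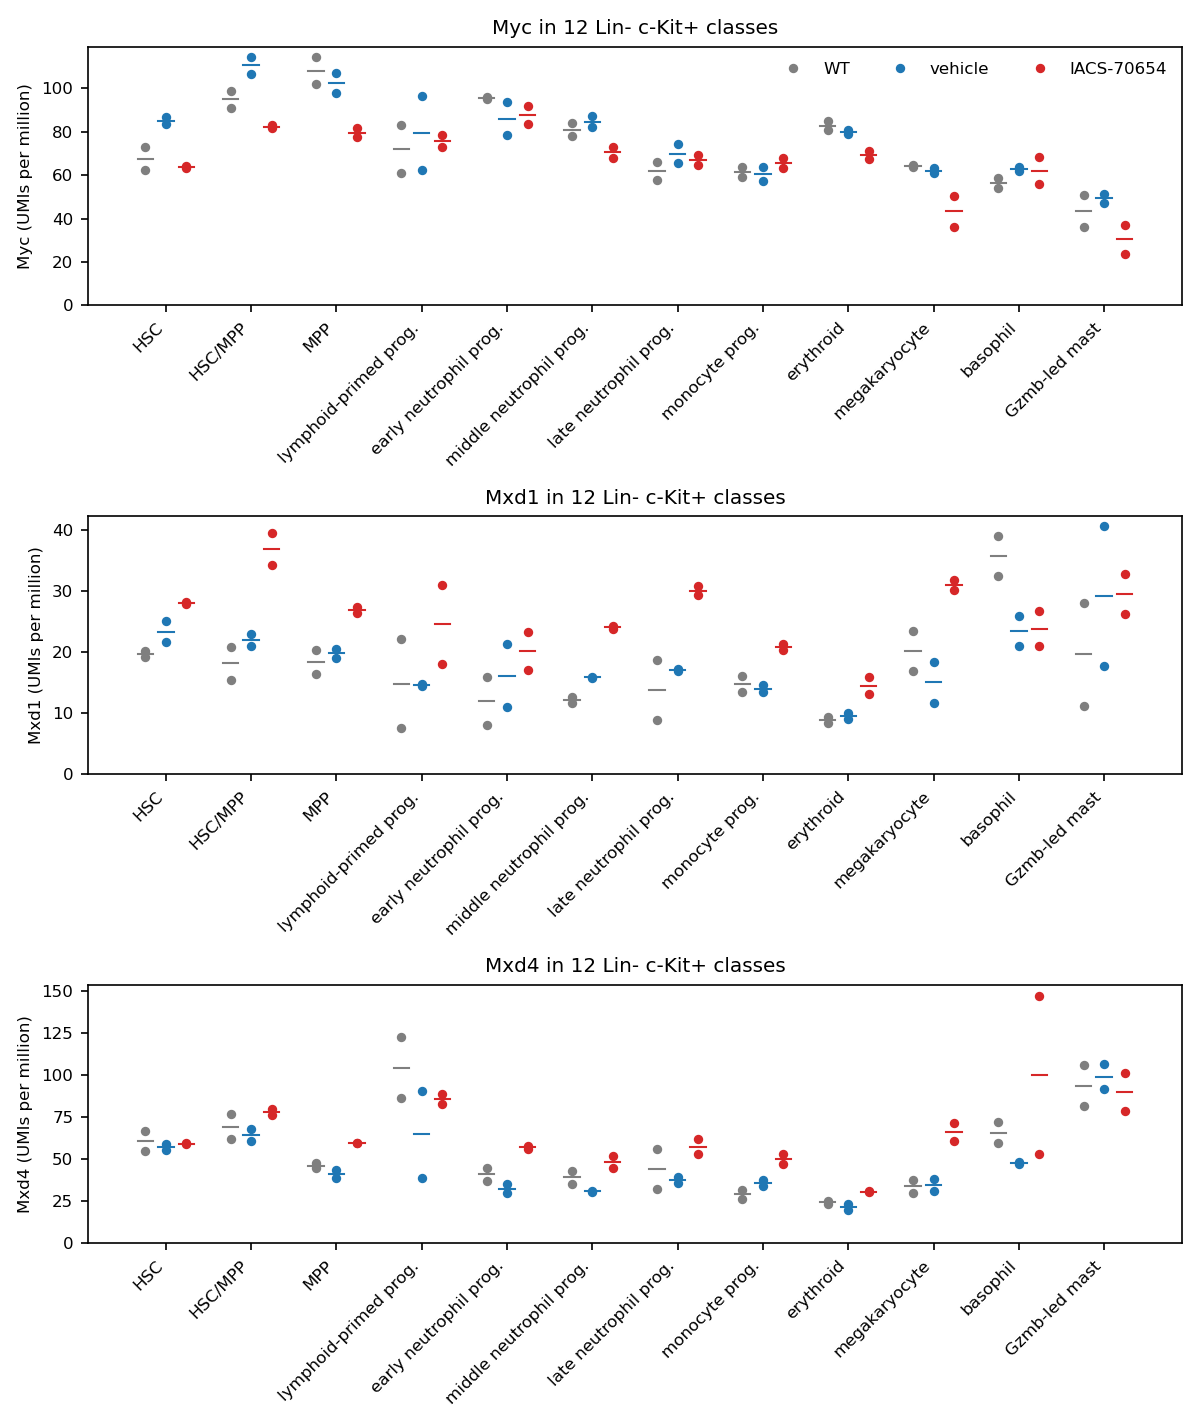
CPM of Myc, Mxd1 and Mxd4 in each library, points, and group means, lines, for 12 Lin- c-Kit+ classes in WT, vehicle and IACS-70654 groups of 2 libraries. In MPP-like cells the IACS-70654 points of Myc, 81.6 and 77.5, lie below those of vehicle, 97.9 and 107, and the points of Mxd4, 59.5 and 59.4, above 38.6 and 43.8.

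Mxd1, the antagonist that marks the end of division in granulocytes, was tested in 12 Lin- c-Kit+ classes and rose in 5. Its log2 change was positive in 11 of the 12, with a median of 0.54, and both IACS-70654 libraries were above both vehicle libraries in 9 of 14 classes, against 28% of all gene-by-class pairs. In erythroid-like cells, where its level was lowest, it read 8.44 and 9.46 in WT, 9.97 and 9.05 under vehicle and 15.9 and 13.1 under IACS-70654. The IACS-70654 libraries were above all 4 others, by a log2 change of 0.62 against vehicle (SE 0.15, edgeR adjusted p = 0.00179, 1.70% of genes called higher) and 0.72 against WT (SE 0.14, adjusted p = 0.000107). In late neutrophil progenitor-like cells it went from 17 and 17.2 under vehicle to 30.8 and 29.4, a log2 change of 0.76 (SE 0.19, adjusted p = 0.00159, 1.89% of genes called higher). WT there was uneven, at 18.7 and 8.85, below both IACS-70654 libraries. The gain in megakaryocyte-like cells was from 18.4 and 11.7 to 30.2 and 31.7 (log2 0.82, SE 0.22, adjusted p = 0.00532), and the groups did not overlap.

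Mxd1 also rose in middle neutrophil progenitor-like (log2 0.57, edgeR adjusted p = 0.00678, 1.31% of genes called higher) and monocyte progenitor-like cells (log2 0.50, adjusted p = 0.0021, 2.69% called higher). These calls and that in megakaryocyte-like cells were lost whichever of the 4 libraries compared was left out, and those in erythroid-like and late neutrophil progenitor-like cells also without IACS-70654 replicate 1. The middle class read 15.9 and 15.8 under vehicle and 23.7 and 24.3 under IACS-70654. The monocyte class went from 14.6 and 13.5 to 20.4 and 21.4, without overlap in either. In G1 cells alone 4 of the 5 calls were lost, in monocyte progenitor-like (-0.0025, edgeR adjusted p = 0.997), middle neutrophil (0.53, adjusted p = 0.312), erythroid-like (1.62, adjusted p = 0.0155) and megakaryocyte-like cells (1.45, adjusted p = 0.0138), and that of the late neutrophil class held at 1.15 (adjusted p = 0.000767). The middle and monocyte calls were also lost without high doublet scores. In HSC-like cells Mxd1 averaged 23.7, within 19.2 to 28.2 over 6 libraries, and was not called. In MPP-like and HSC/MPP-like cells the values were of the same order: MPP-like cells gave 19 and 20.6 under vehicle and 27.3 and 26.4 under IACS-70654 (log2 0.47, adjusted p = 0.00235, under the size threshold), and HSC/MPP-like cells went from 20.9 and 23 to 34.3 and 39.5 (log2 0.70, adjusted p = 0.0219). Both were called against WT, at 0.53 (adjusted p = 0.00826) and 0.93 (adjusted p = 0.00526). Of these the MPP-like call was lost without WT replicate 1 or IACS-70654 replicate 1, without the cell filter and with a replicate block (0.53, edgeR adjusted p = 0.012), and the HSC/MPP-like call without either WT library or IACS-70654 replicate 2. Both were lost by DESeq2 and in G1 cells, as was the erythroid-like call against WT, which also needed WT replicate 1 and IACS-70654 replicate 1. The change of Mxd1 was not shown to differ between classes (adjusted p = 0.839).

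Because Mxd1 is far higher in mature neutrophils than in progenitors, neutrophil marker genes were summed in the progenitor classes beside it. The 6 mature markers were Cxcr2, Csf3r, Retnlg, Msrb1, Ccl6 and Mmp9. The study reports that IACS-70654 reduced Csf3r in mature neutrophils, so their sum can change without a change in the amount of neutrophil RNA. Among the classes where Mxd1 rose, the summed level of 6 mature neutrophil markers in erythroid-like cells was 48.3 and 44.8 under vehicle and 52.4 and 52.0 under IACS-70654. It was 51.3 and 53.4 against 53.6 and 53.8 in megakaryocyte-like cells and 344 and 356 against 374 and 376 in late neutrophil progenitor-like cells, slightly higher under IACS-70654 in all 3. It was lower under IACS-70654 in middle neutrophil progenitor-like cells, at 259 and 255 against 282 and 287, and in monocyte progenitor-like cells, at 227 and 241 against 259 and 247. The sum of 6 immature neutrophil markers moved up with Mxd1 in late neutrophil progenitor-like cells, from 31.8 and 37.0 to 65.7 and 98.8, in monocyte progenitor-like cells, from 16.6 and 19.2 to 32.7 and 34.6, and less in the middle class, from 30.5 and 27.96 to 31.6 and 40.9. This sum is not given here for erythroid-like and megakaryocyte-like cells, and the part of either marker set in the Mxd1 results was not tested. In MPP-like cells, where Mxd1 was not called against vehicle, mature markers summed to 155 and 156 under vehicle and 128 and 125 under IACS-70654.

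Mxd4, an antagonist found in resting and differentiating cells, rose in 4 classes, and its log2 change was positive in 12 of 13, with a median of 0.49. For vehicle against WT the log2 change of Mxd4 was negative in 10 of 12 classes, with a median of -0.17 and 0 called. In MPP-like cells it read 44.6 and 47.7 in WT, 38.6 and 43.8 under vehicle and 59.5 and 59.4 under IACS-70654. Vehicle lay below WT and IACS-70654 above both, with a log2 change of 0.57 against vehicle (SE 0.09, edgeR adjusted p = 5.99e-07, 1.98% of genes called higher). In megakaryocyte-like cells it went from 31.3 and 38.4 under vehicle to 71.3 and 60.6 under IACS-70654, with WT at 30.2 and 37.8. This was the largest of its called changes (log2 0.94, SE 0.16, adjusted p = 1e-05, 3.27% of genes called higher), and it held in G1 cells alone (1.06, adjusted p = 0.00722). Early neutrophil progenitor-like cells went from 29.8 and 35.2 to 56.3 and 58 (log2 0.83, adjusted p = 2.93e-05, 1.07% of genes called higher) and the middle class from 31.1 and 30.8 to 44.9 and 52.1 (log2 0.60, adjusted p = 4.61e-05). WT lay between vehicle and IACS-70654 in both, at 44.8 and 37 in the early and 35.5 and 42.8 in the middle class, and neither class was called against WT (0.39, edgeR adjusted p = 0.201, and 0.27, adjusted p = 0.496).

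Mxd4 libraries were separated by treatment in 11 of 14 classes, all upward, against 28% of gene-by-class pairs. The exceptions were HSC-like cells, at 55.2 and 59.3 under vehicle and 59.4 and 59.1 under IACS-70654 (log2 0.03), lymphoid-primed progenitor-like and Gzmb-led mast-like cells. Its change differed between classes (edgeR adjusted p = 0.00637, beside 15.3% of all genes called), a call lost without the megakaryocyte-like class (adjusted p = 0.0455), vehicle replicate 1 (0.628) or IACS-70654 replicate 1 (0.0326). Against WT it was called higher in monocyte progenitor-like (0.76, adjusted p = 3.06e-07) and megakaryocyte-like cells (0.90, adjusted p = 4.68e-06). In single clusters, of 24 tested, 23 were positive for Mxd4 and 5 called, and of 23 tested, 23 were positive for Mxd1 and 1 called. For Myc 3 of 25 were positive and 1 called. Over all genes 50.1% of gene-by-cluster tests were positive, and 0.954% were called higher and 1.74% lower. In G1 cells alone the Mxd4 calls in MPP-like (0.42, edgeR adjusted p = 0.172), early (0.72, adjusted p = 0.0109) and middle neutrophil progenitor-like cells (0.52, adjusted p = 0.089) were lost. The share of MPP-like cells in G1 was 40.5% and 43.6% in WT, 23.4% and 29.2% under vehicle and 38.2% and 35.1% under IACS-70654.

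Mxd3 and Mxi1, the remaining Mxd proteins, had 0 calls in Lin- c-Kit+ cells by edgeR or DESeq2 against vehicle. There Mxi1 was positive in 11 of 13 classes with a median log2 change of 0.27 and 5 at an unadjusted p under 0.05. In HSC/MPP-like cells it went from 44.3 and 47.3 to 60.2 and 64.6 (log2 0.40). Mxd3, with 2 of its 5 tests at that p, averaged 0.361 in HSC-like and 10.5 in basophil-like cells. Mnt, the ubiquitous antagonist, and Mga, a large scaffold protein of a Polycomb-type complex, leaned the other way. Mnt was negative in 8 of 12 classes (median -0.21) and Mga in 11 of 14 (median -0.12), with 0 edgeR or DESeq2 calls each and 3 at an unadjusted p under 0.05 each. Beside these counts and those of Mxi1 and Mxd3, 10.9% of all tests were higher and 12.8% lower at that p. In HSC/MPP-like cells Mga read 116 and 125 under vehicle and 91.7 and 89.7 under IACS-70654 (log2 -0.44, SE 0.11, adjusted p = 0.0043, under the size threshold). Against WT, Mnt fell in monocyte progenitor-like cells, from 24.7 and 22 to 17 and 15.7 (log2 -0.57, adjusted p = 0.00266). That call was lost without WT replicate 1 or either IACS-70654 library, by DESeq2 (adjusted p = 0.0858) and in G1 cells (-0.62, edgeR adjusted p = 0.192).

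The balance of the network was expressed as the log2 ratio of Myc UMIs to the summed UMIs of the 6 antagonists. Its mean over 12 Lin- c-Kit+ classes was -1.44 and -1.49 in the WT libraries, -1.36 and -1.36 under vehicle and -1.78 and -1.87 under IACS-70654. Both IACS-70654 libraries were below the 4 others, and the mean difference from vehicle was -0.47 against a replicate SD of 0.0413. The 2 libraries of a group may be parts of the same pool, so this SD may not hold the variation between mice. No test is given, since the score was built on the members. The difference was negative in all 12 classes with all libraries in, and in 10 of them both IACS-70654 libraries were below both vehicle libraries. With each gene in turn over the same antagonist sum, 44% of gene-by-class pairs at 10 or more CPM were separated in that way. In the lymphoid-primed progenitor-like and basophil-like classes the IACS-70654 mean (-1.87 and -2.004) was not below that of WT (-1.94 and -2.07). The difference from vehicle ran from -0.88 in megakaryocyte-like cells, -0.62 in HSC-like and -0.51 in MPP-like to -0.26 in early neutrophil progenitor-like and -0.06 in monocyte progenitor-like cells. Without IACS-70654 replicate 1 the megakaryocyte-like value was -0.55, and the early neutrophil value was -0.08 without vehicle replicate 1 and -0.45 without vehicle replicate 2. The sign turned in 2 classes, basophil-like (-0.35, 0.20 without IACS-70654 replicate 2) and monocyte progenitor-like (0.04 without IACS-70654 replicate 1 and 0.05 without vehicle replicate 2). In Gzmb-led mast-like cells the value of -0.52 was -0.15 without IACS-70654 replicate 2 and -0.88 without IACS-70654 replicate 1. In MPP-like cells 684 and 323 Myc UMIs stood against 1385 and 647 antagonist UMIs with vehicle, and 1129 and 595 against 3180 and 1746 with IACS-70654. The basophil-like and monocyte progenitor-like groups overlapped. In the CD45+ sort, from other libraries, the direction was mixed over the 7 classes that held Myc UMIs in all 6 libraries: the difference was positive in 5 and negative in basophil-like and MPP-like cells. The largest sizes rested on few UMIs. The 1.20 in immature neutrophil-like cells came from 2 and 8 Myc UMIs under vehicle and was 0.33 without vehicle replicate 1 and 2.08 without vehicle replicate 2, and the -2.59 in basophil-like cells came from 1 and 4 under IACS-70654 and was -1.72 without IACS-70654 replicate 1. Among classes with more UMIs it was 0.61 in monocyte-like and 0.32 in azurophil-high cells (0.17 without IACS-70654 replicate 2) and -0.93 in MPP-like cells. Plasmacytoid dendritic-like cells, with 3 and 2 Myc UMIs under vehicle and 0 and 0 under IACS-70654, gave no ratio. The few MPP-like cells there gave ratios of -1.30 and -2.02 in WT, -1.22 and -1.43 under vehicle and -2.07 and -2.43 under IACS-70654, from 49 to 92 Myc UMIs per library. Myc itself was tested in 6 CD45+ classes, with 4 positive and 2 negative log2 changes, from -1.76 in basophil-like to 1.04 in cycling neutrophil precursors (edgeR adjusted p = 0.0519), 0 called by edgeR or DESeq2 and 5 at an unadjusted p under 0.05. Over all genes 6303 of 11488 stood at that p in mature or Il1b-high and 3235 of 11181 in monocyte-like cells.

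**Figure D3:**
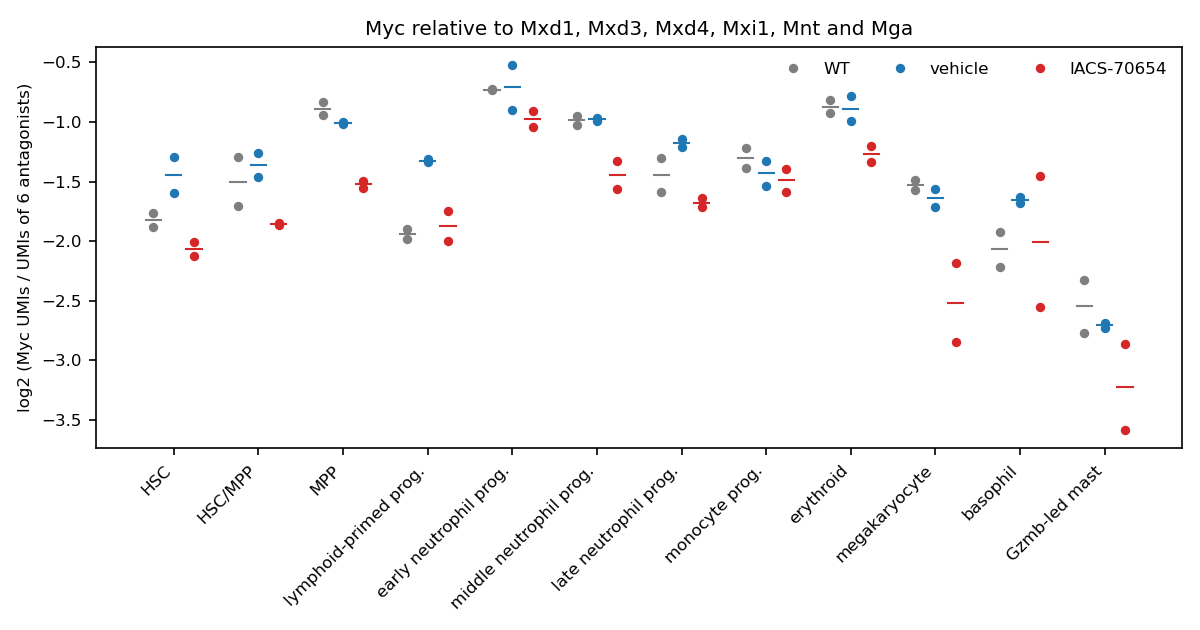
The log2 ratio of Myc UMIs to the summed UMIs of Mxd1, Mxd3, Mxd4, Mxi1, Mnt and Mga in each library, points, with group means, lines, by Lin- c-Kit+ class. The IACS-70654 points lie below both vehicle points in 10 of 12 classes and overlap them in the basophil and monocyte progenitor classes.

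Within the Lin- c-Kit+ sort several members varied with the cell cycle phase, assigned from 43 S and 54 G2/M genes that include no member. Mxd3, the antagonist expressed in dividing cells, was at 0.843 and 0.929 CPM in G1 and 9.71 and 10.2 in G2/M of the vehicle libraries, and all 6 libraries showed the same order. It rose by a log2 of 1.75 in S (edgeR adjusted p = 7.53e-08) and 3.71 in G2/M (adjusted p = 3.4e-14) against G1. Mxd4 went the other way, from 48.7 and 49.8 in G1 to 33.3 and 31.3 in G2/M of the vehicle libraries, and it fell by 0.65 in S (adjusted p = 2.66e-08) and by 0.65 in G2/M (adjusted p = 2.19e-08). Mycn fell by 1.22 and 1.08 on the log2 scale. This fit pooled all classes, and Mycn averaged 29.7 CPM in megakaryocyte-like, 26.1 in HSC-like and 2.36 in MPP-like cells. The part of the class mix of each phase in the drop of Mycn was not tested. Of 18 member tests 6 were called, beside 19% of all genes in S and 23.1% in G2/M. Within MPP-like cells alone 2 of these 6 were called, Mxd3 in both phases, together with Myc, lower in G2/M by a log2 of -0.65 (adjusted p = 4.14e-11), beside 6.98% of all genes in S and 8.46% in G2/M. Mxd4 was under the size threshold there, at -0.42 in S (edgeR adjusted p = 0.000959) and -0.32 in G2/M (adjusted p = 0.00829), and Mycn had too few UMIs to test. Within erythroid-like cells Mxd3 and Mxd4 kept their directions and all 4 of their tests were called, beside 12.6% of all genes in S and 16.3% in G2/M. In each phase Mxd4 was higher in both IACS-70654 libraries than in the other 4, for example 70.9 and 68.1 in G1 against 48.7 and 49.8 with vehicle. These phase levels pool all classes of the sort, and the mix of classes differed between the groups. The part of that mix in the Mxd4 difference was not tested.

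**Figure D4:**
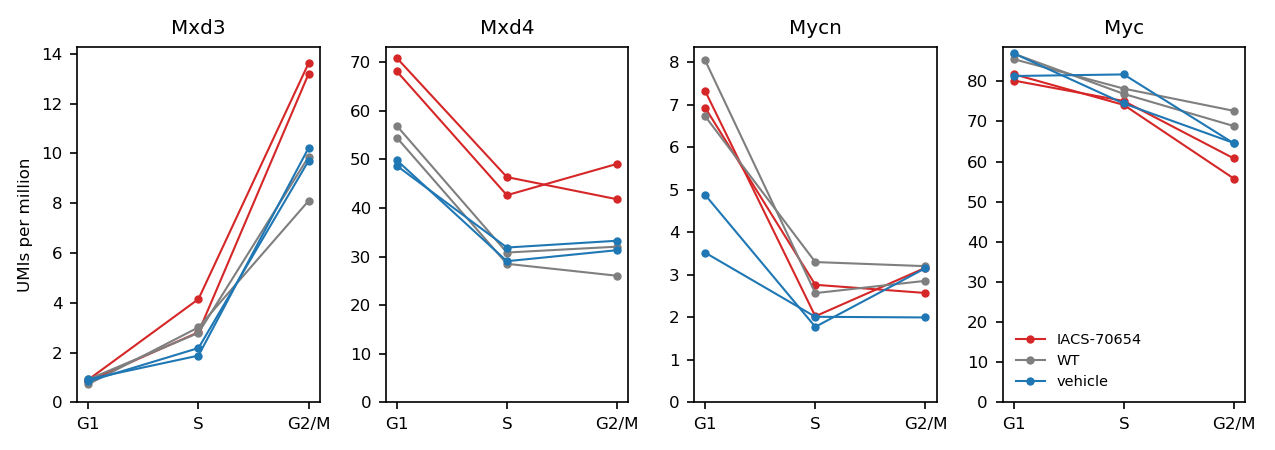
CPM of Mxd3, Mxd4, Mycn and Myc in G1, S and G2/M cells of the Lin- c-Kit+ sort, with each line a library colored by group. Mxd3 climbs to 8.10 to 13.6 in G2/M, Mxd4 drops after G1 in every library, and the IACS-70654 lines of Mxd4 lie above the other 4 throughout. Each line pools all classes of its library, and the mix of classes differed between the groups.

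In the CD45+ sort the same genes followed neutrophil maturation. Mxd1 averaged 86.5 CPM in azurophil-high precursors, 214 in cycling precursors, 575 in immature and 1106 in mature or Il1b-high neutrophil-like cells, and the last 3 ranges did not overlap. Max averaged 55.4, 64.2, 148 and 262 in the same classes, and Mxi1 100.4, 144, 161 and 195. Myc averaged 34.6 in azurophil-high precursors and 2.46, 1.01 and 1.73 in the others. These are descriptions of classes that were drawn from the same cells.

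With IACS-70654, 4 of 68 member tests were called in 10 CD45+ classes, 1 higher and 3 lower. Over all genes 8.45% of tests were called, 4.37% higher and 4.08% lower, so members were not called more often than genes in general. Each class was made of the same clusters in every group, but their shares within a class were not compared and single clusters of this sort were not fitted. The mature class pools mature and Il1b-high cells. The study reports a larger fraction of neutrophils with high IL-1β in tumor-bearing than in non–tumor-bearing mice. Fitted changes here are relative to all genes: without TMM the median gene shifted by 0.28 on the log2 scale in immature and 0.20 in mature cells. Max fell in both. In mature cells it read 327 and 316 in WT, 284 and 284 under vehicle and 183 and 178 under IACS-70654, a stepwise order without overlap. The log2 change against vehicle was -0.86 (SE 0.03, edgeR adjusted p = 1.27e-34, 9.24% of genes called lower), and without TMM it was -0.66. In immature cells Max read 187 and 189 in WT, 143 and 142 under vehicle and 115 and 114 under IACS-70654 (log2 -0.58, SE 0.05, adjusted p = 2.15e-12, 7.72% of genes called lower), and without TMM the change was -0.32, under the size threshold. Both Max calls against vehicle held whichever library was left out.

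Mxi1 fell in mature cells, from 185 and 207 under vehicle to 158 and 159 (log2 -0.51, SE 0.04, edgeR adjusted p = 5.91e-19), a call lost without TMM (-0.31), without the low-count filter and without vehicle replicate 2. Mxd4 rose in monocyte-like cells, from 24.7 and 25.4 to 40.2 and 35.8, to about the WT level of 37 and 35.4 (log2 0.60, SE 0.12, adjusted p = 0.000803, 2.51% of genes called higher). That call was lost without either vehicle library or IACS-70654 replicate 1, by DESeq2 (0.61, adjusted p = 0.0195) and in G1 cells (0.62, edgeR adjusted p = 0.0272), and DESeq2 called the other 3 of the 4. Mxd1 itself stood in mature cells at 1057 and 1064 under vehicle against 979.5 and 999.5 under IACS-70654 (log2 -0.30, under the size threshold), below WT at 1293 and 1243. That log2 change is with TMM scaling and is larger in size than the difference between the CPM. In cycling precursors Mxd1 was called for tumor-bearing mice against WT mice, at 161 and 155 in WT, 198 and 208 under vehicle (log2 0.51 against WT, SE 0.06, adjusted p = 2.83e-08, 1.85% of genes called higher) and 285 and 278 under IACS-70654 (0.76 against WT, adjusted p = 4.95e-13). This was the 1 called member of 76 tests for vehicle against WT, beside 2.42% of all tests, 1.36% higher and 1.06% lower. Without TMM it was 0.36, under the size threshold, and it was lost without vehicle replicate 2. IACS-70654 against WT gave 6 called of 68, 2 higher and 4 lower, near the share of all tests (8.55%, 4.1% higher and 4.45% lower). Beyond Mxd1 they were Max in azurophil-high (-0.53), immature (-0.72) and mature cells (-0.93), Mxi1 in mature cells (-0.64) and Mxd4 in mature cells (0.56). The azurophil-high call was lost without WT replicate 1 or IACS-70654 replicate 1, without TMM and without the low-count filter, and DESeq2 called 4 of the 6, neither that nor Mxd4 in mature cells.

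**Figure D5:**
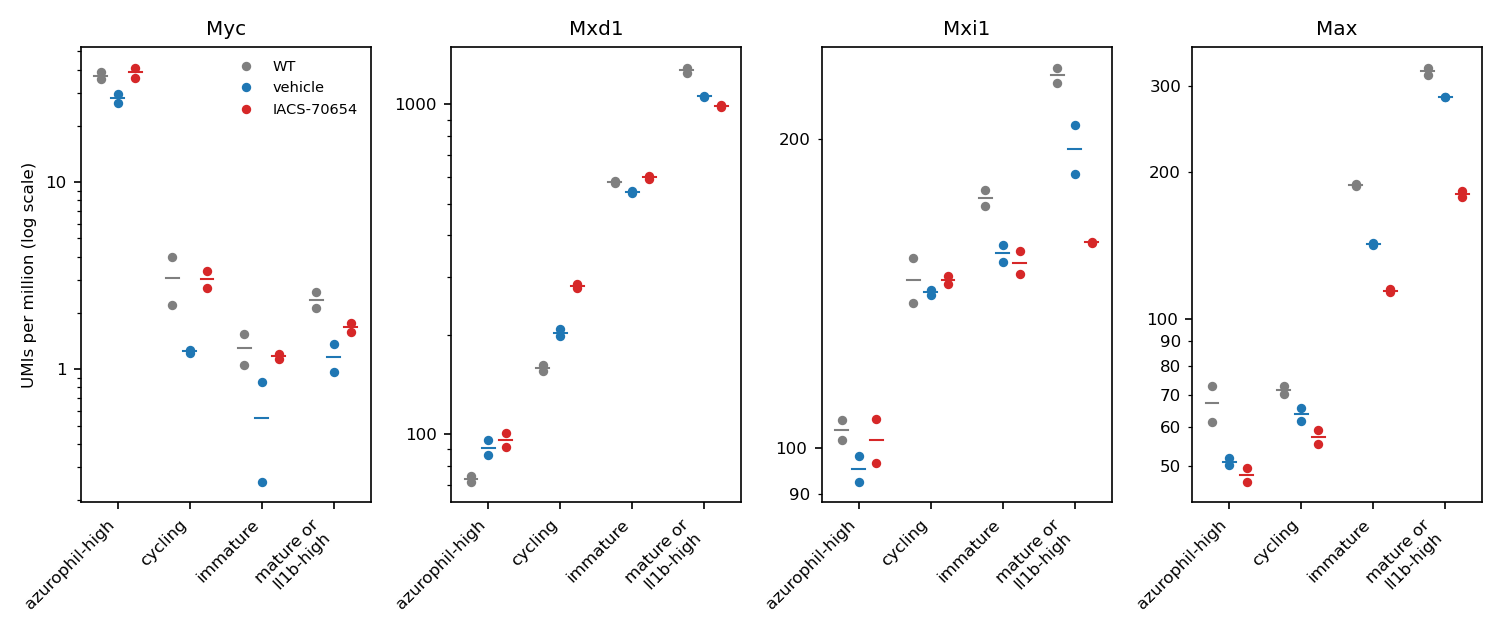
CPM, on a log axis, of Myc, Mxd1, Mxi1 and Max in 4 neutrophil classes of the CD45+ sort, with a point for each library and a line for each group mean. Mxd1 climbs from means of 86.5 in azurophil-high to 1106 in mature cells, and in mature cells Max is lowest with IACS-70654 (183 and 178 against 284 and 284 with vehicle).

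The pathway lists placed the members among their partners in the 14 Lin- c-Kit+ classes, for IACS-70654 against vehicle, where 1.41% of all gene-by-class tests were called higher and 2.26% lower. Of the Myc-activated targets, which include ribosome, chaperone and nucleotide genes, 0 were called higher and 20 lower (4.84%) by edgeR in 413 gene-by-class tests. At an unadjusted p under 0.05, 13 of these tests were higher and 166 lower. Over all genes 10.9% of tests were higher and 12.8% lower at that p. The class medians of the list ran from -0.48 to 0.29. In megakaryocyte-like cells, where 4.06% of all genes were called lower, 11 of 32 were, with a median of -0.48 beside 0.01 over all genes, and in MPP-like cells, where 2.83% were, 2 of 32 (median -0.21). The share of megakaryocyte-like cells in G1 was higher under IACS-70654 than under vehicle, and the lists were not fitted in G1 cells alone. Hspd1, a mitochondrial chaperone, was called lower in 3 classes, at -0.78 in megakaryocyte-like cells, and its partner Hspe1 in 3. Of 5 Myc-repressed targets 4 could be tested, and 8 of their 49 tests (16.3%) were called higher and 1 lower (2.04%). Cdkn1a, an inhibitor of cyclin-dependent kinases, rose by 1.16 in MPP-like (edgeR adjusted p = 6.11e-15) and 0.79 in monocyte progenitor-like cells, and Cdkn1b, a related inhibitor, by 0.66 in HSC/MPP-like cells. Ndrg1, a growth-arrest gene, fell by 0.91 in erythroid-like cells.

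The MLX arm uses Mlx in place of Max and shares the E-box. Of its 3 genes Mlx and Mlxip could be tested and had 0 edgeR calls in 25 tests and 2 at an unadjusted p under 0.05, while of its 2 targets Txnip, an inhibitor of thioredoxin and glucose uptake, was called higher in 11 of 14 classes, with log2 changes from -0.10 in erythroid-like to 1.77 in megakaryocyte-like cells, and Arrdc4, its relative, in 3 of 9. The Arrdc4 promoter holds CACGTG and that of Txnip does not in the window searched. Only this exact sequence was searched, so other forms of the site were not looked for. Txnip and Arrdc4 together were called higher in 60.9% of tests, and the 4 lists of corepressors, the Mga complex, cofactors and protein turnover in 0.518% to 1.89%, with 0% to 1.04% lower. The corepressor list had 1 call in 117, Sin3b in erythroid-like cells (0.51). The Mga complex list had 2 higher and 1 lower of 110, with Rybp at 0.54 in monocyte progenitor-like cells, and the cofactor list 1 higher and 2 lower of 193. In the protein turnover list, 2 of 106 were called higher, with Usp28, a deubiquitinase of Myc, at 0.75 in erythroid-like cells. Members of the lists were chosen with earlier results of these data known, so their counts are not independent support for a direction.

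In the 2208L tumors each condition was 1 library, so no test was possible and the 95% intervals cover counting error only. Mycn gave 0 UMIs in tumor cell-like cells of all 4 conditions. Mxd1 stood at 28.2 CPM in the vehicle tumor, 27.6 with anti-PD1, 56.5 under IACS-70654 and 58.8 with the combination. Both tumors given IACS-70654 were high, with a log2 ratio to vehicle of 1.00 (95% interval 0.75 to 1.26) for IACS-70654 and 1.06 (95% interval 0.82 to 1.31) for the combination. The tumor cell-like class was not made of the same clusters in every tumor: a cluster of 66 cells led by the keratin genes Krt14, Krt6a and Krt6b held 24 cells under IACS-70654, 42 with the combination and 0 in the other tumors. Over the clusters found in all 4 tumors the Mxd1 ratios were smaller, at 0.70 (0.44 to 0.96) and 0.66 (0.41 to 0.91). Those of Myc were 0.90 and 0.65. Myc, at 5.81 under vehicle, read 10.7 under IACS-70654 (ratio 0.89, 95% interval 0.33 to 1.48) and 8.94 with the combination. Mxd4 was lower, from 68.8 under vehicle to 52 under IACS-70654 (ratio -0.40, 95% interval -0.59 to -0.22). Intervals that excluded 0 were found for 39.4% of all genes with IACS-70654, 15.3% with anti-PD1 and 39.4% with the combination, and for 9 of 24 member ratios (37.5%) over the 3 conditions. Over the clusters found in all 4 tumors there were also 9, of which 8 were the same: that of Max under IACS-70654 no longer excluded 0 (0.23, -0.02 to 0.49), and that of Mxd3 under IACS-70654 did (1.58, 0.02 to 3.57, from 4 UMIs with vehicle). With TMM-scaled totals 6 of the 9 still excluded 0, and Max under IACS-70654 (0.14), Myc with the combination (0.51) and Mga with anti-PD1 (0.16) did not. The macrophage markers summed in the same cells were 636 with vehicle, 1023 with IACS-70654, 691 with anti-PD1 and 905 with the combination. Their part in these ratios was not tested. Mxd1 stood at 674 to 792 in tumor neutrophil-like cells. The sum of neutrophil markers in tumor cell-like cells is not given here, and its part was not tested either.

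In macrophage-like cells of the tumors Max went from 51.3 under vehicle to 80.7 under IACS-70654 (ratio 0.65, 95% interval 0.43 to 0.88) and 83.7 with the combination. Mxd1 there read 62.9 in the vehicle tumor, 83.7 for IACS-70654 (ratio 0.41) and 95.6 for the combination (ratio 0.60), where 25.8% of all genes with IACS-70654 and 26.2% with the combination had intervals excluding 0. In macrophage-like cells the intervals of Myc, Mxd4, Mxi1, Mnt and Mga included 0 with IACS-70654 (ratios from -0.07 to 0.21) and with the combination. Tumor neutrophil-like cells carried Mxd1 at 674 to 792 in the 4 conditions.

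Across the mean levels of 22 BM classes, the 5 genes of 11643 most like Myc were Smyd2 (Pearson r 0.977), Tfpi, Cd320, Dctd and Pter (0.964), and those most like Mxd1 were Anxa11 (0.986), Numb, Slc27a4, Ifnlr1 and Il1rn (0.966). Myc and Mxd1 themselves had an r of -0.875. These are descriptions over classes that share libraries and depth.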

How the data were processed

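Single-cell RNA was measured in 16 libraries with 10x chemistry. The authors made the deposited matrices of raw UMI counts with Cell Ranger on mm10, without normalization, and pooled 3 mice for each sample per the study's methods or for each treatment group per the series record, so counting error and the libraries' spread set the precision. Cells with over 200 and under 6000 genes and at most 10% mitochondrial UMIs were kept. Clusters came from scanpy 1.11.5 and leidenalg 0.10.2 (2000 variable genes, 30 components, 20 neighbours), and clusters were named from fixed markers. UMIs were summed per class and library (20 or more cells) and fitted with edgeR 4.0.16 in R 4.3.3 (TMM, filterByExpr, quasi-likelihood test, Benjamini-Hochberg adjustment over all genes), with DESeq2 1.42.0 as an alternative. Phases were assigned after thinning cells to 3000 UMIs (Lin- c-Kit+) or 1000 (CD45+). Doublet scores were used only as an alternative that left out the highest 5%. Scripts were tested on simulated data.

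Named genes were all 9 members, up to 3 genes per list by the smallest adjusted p in the largest Lin- c-Kit+ classes, and the 5 most like Myc or Mxd1. Members and lists were chosen with earlier results of these data known. The tests of single clusters, of scaling without TMM and of the clusters found in all 4 tumors were added after seeing the data.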

Additional observations from a re-analysis of the deposited data

Results flagged for a closer look

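The effect of IACS-70654 against vehicle differed between Lin- c-Kit+ classes for Myc (class-by-treatment test in edgeR over 12 classes, adjusted p = 0.000932) and for Mxd4 (adjusted p = 0.00637). Of the 9 members, Myc and Mxd4 were called in that test and no other was. The same test called 15.3% of all genes, so such a difference was not particular to these members. For Myc the log2 changes ran from -0.66 in Gzmb-led mast-like and -0.65 in megakaryocyte-like to 0.09 in monocyte progenitor-like cells, and for Mxd4 from -0.26 in Gzmb-led mast-like to 0.94 in megakaryocyte-like cells. Without the megakaryocyte-like class the adjusted p was 0.0102 for Myc and 0.0455 for Mxd4 in edgeR. Without vehicle replicate 1 it was 0.131 and 0.628, and without IACS-70654 replicate 1 it was 0.0367 and 0.0326. The cause was not tested.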

How the results depend on the processing

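Members called for IACS-70654 against vehicle numbered 14 over both sorts, 5 by DESeq2, 6 in G1 cells alone and 6 to 15 when each library was left out. The lowest count, 6, was without Lin- c-Kit+ vehicle replicate 1, and 9 were called without IACS-70654 replicate 1 of that sort. Vehicle against WT gave 1 call, 0 without TMM, 0 in G1 cells, 2 without high doublet scores and 1 to 2 when each library was left out, the higher count without CD45+ WT replicate 2. IACS-70654 against WT gave 13, 6 by DESeq2, 6 in G1 cells and 10 to 14 when each library was left out. Phase calls numbered 6, and 3 within MPP-like cells, 2 of them among the 6. The mean balance difference of -0.47 was -0.66 with only the 4 Mxd genes as denominator, -0.61 in G1 cells and -0.51 to -0.42 when each library was left out. In G1 cells Mxd1 in monocyte progenitor-like cells turned to -0.0025 (edgeR adjusted p = 0.997). The cause of these shifts was not tested. No share of all genes was computed for the counts by DESeq2, in G1 cells or with a library left out. The G1 fits hold fewer cells. Some calls lost there had larger log2 changes, as Mxd1 in erythroid-like cells, and others smaller ones, as Mxd4 in MPP-like cells. With a replicate block the counts were 14, 1 and 13, although Mxd1 in MPP-like cells against WT lost its call (edgeR adjusted p = 0.012). The deviations of same-numbered libraries correlated at -0.0201 to 0.107, so the numbers were not taken to pair them. In the tumor, 6 of 9 intervals still excluded 0 with TMM-scaled totals (not Max under IACS-70654, Myc with the combination or Mga with anti-PD1), and over clusters found in all 4 tumors Mxd1 went from 1.00 to 0.70 under IACS-70654 and from 1.06 to 0.66 with the combination. Low counts limit Mycn and Mxd3, each tested in 5 Lin- c-Kit+ classes.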
